A study of Mus musculus with 32 samples.

Results

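The total RNA of 3T3-tTA-eIF4E cells, an NIH 3T3 mouse fibroblast line that switches on an eIF4E transgene when tetracycline is taken away, was examined for changes in mRNA amount 5 h after induction. It was covered by the samples titled Total RNA 9 to 16, which were 8 of the 32 samples of the series and came from 4 of its 16 two-colour cDNA arrays, since each array was deposited as 2 samples, 1 for each duplicate spot. On each array RNA of induced cells (-tet 5 hr) competed with RNA of uninduced cells (+tet), and a value is the log2 of induced over uninduced, averaged over both spots of a clone. Each array takes its name from the lower of its sample numbers. Induced RNA carried Cy5 on T9 and T15 and Cy3 on T11 and T13. The same comparison on 4 arrays of the parental line 3T3-tTA (T1, T3, T5 and T7), which carries the tetracycline-controlled activator without the eIF4E transgene and was also freed of tetracycline for 5 h, served as the control. One inducible line was used, and the 4 arrays of a line stood for 2 RNA extractions with the dyes swapped for each.

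eIF4E binds the cap at the start of an mRNA and brings the mRNA to the ribosome as part of the eIF4F complex, together with the scaffold eIF4G and the helicase eIF4A. It is usually the scarcest part of that complex, it is raised in many tumours, and extra eIF4E transforms fibroblasts. Since it acts on translation, the amount of an mRNA in total RNA serves as the baseline against which its place on polysomes is read. In a tet-off line the transactivator tTA drives the transgene only in the absence of tetracycline, so the parental line shows what removal of the drug does without the transgene.

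The highest mean of all rows belonged to a clone of Eif4e itself. Of the 4 Eif4e clones in the study's list of transcripts regulated in total RNA, 3 could be tied to a row of the deposited values. Clone H3130B02 read 3.55 on T9, 3.45 on T11, 5.16 on T13 and 2.99 on T15, a mean of 3.79 ± 0.95 (SD, n = 4 arrays) or 13.8-fold. Clone H3012A09 read 2.54, 2.09, 4.18 and 2.73 on the same arrays, a mean of 2.89 ± 0.90 or 7.39-fold. Clone H3089A10 read 2.44, 2.64, 3.56 and 2.36, a mean of 2.75 ± 0.55 or 6.73-fold. All 12 values of these 3 clones were far above 0 in both dye orientations, and T13 gave the highest value for each clone. In the parental line the 12 values of these clones lay between -0.21 and 0.27, so the lines did not overlap. No row carried the listed value of the remaining Eif4e clone, H3134G10. The row at the place its plate and well give read 0.09 on T9, 0.03 on T11, -0.15 on T13 and 0.02 on T15, a mean of -0.00 ± 0.10, and its spots were bright at 29.0 and 18.7 times the background. Why that place read unlike the other Eif4e clones was not tested. The transgene and the endogenous mRNA cannot be told apart on a cDNA array. The spots of the 3 matched clones were bright, at 35.6 to 146 times the local background in the total RNA channel of the 2 polysomal arrays of this line whose scans were used.

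In the limma test on means of RNA extractions H3089A10 passed the threshold, an adjusted p under 0.1 and at least 1.3-fold (2.75 ± 0.14 SE, adjusted p = 0.0762). That call was lost when the eIF4E line was fitted alone, with each array centred on its median, with the Cy3 arrays alone, and without T9, T15, T1 or T7, with 0 of the 3 clones called. H3130B02 had an adjusted p of 0.169 and H3012A09 one of 0.212, although their changes were larger. With 2 extractions per line, and with the largest p over the possible assignments of arrays to extractions kept, few degrees of freedom stood behind each p. Across 15247 rows 2 were called as higher, 0.0131% of the rows, and 0 as lower, while 505 had an unadjusted p under 0.05. The other called row was clone H3058D02, identified by its printed place on the array and chosen here after its values were seen. It read 3.24, 3.21, 4.32 and 2.82, a mean of 3.40, against 0.13, 0.09, -0.16 and 0.10 on T1, T3, T5 and T7. The study's lists give no gene name for it.

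**Figure D1:**
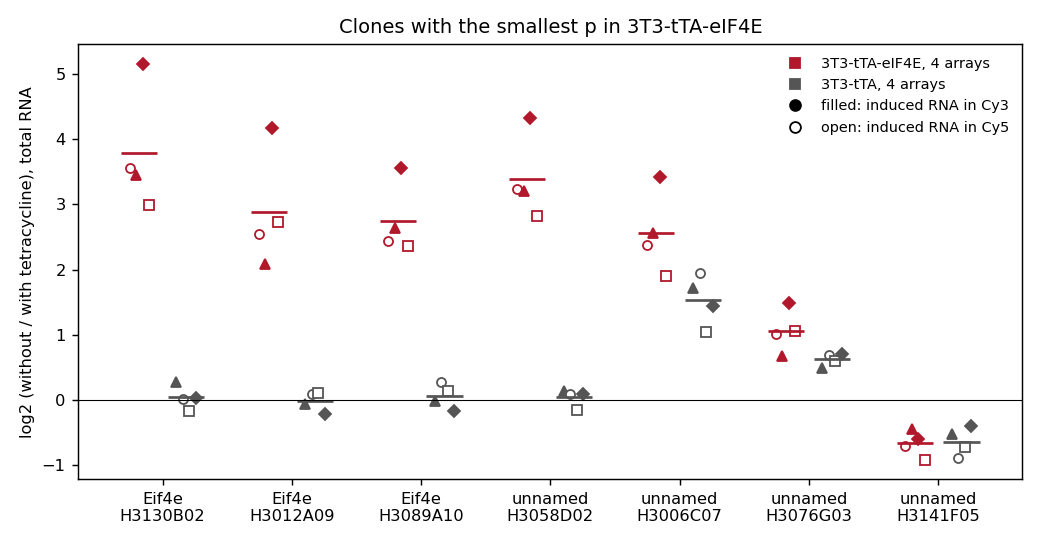
Log2 of induced over uninduced total RNA (vertical axis) on each array for the 7 clones with the smallest p in 3T3-tTA-eIF4E, with red symbols for the 4 arrays of that line, grey symbols for the 4 arrays of 3T3-tTA and lines for the means. The 3 Eif4e clones and H3058D02 are far above 0 in 3T3-tTA-eIF4E and near 0 in 3T3-tTA, and H3006C07, H3076G03 and H3141F05 lie on the same side of 0 on all 8 arrays.

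A few clones had all 8 arrays of the lines on the same side of 0 and a mean of at least 1.3-fold in each, 9 of them higher and 1 lower. Clone H3006C07 read 2.37, 2.56, 3.42 and 1.90 in 3T3-tTA-eIF4E and 1.72, 1.94, 1.04 and 1.44 on T1, T3, T5 and T7. Its mean was 2.56, or 5.91-fold, with the transgene and 1.54, or 2.90-fold, without it. The highest parental array stood above the lowest array of the eIF4E line, so the lines overlapped, and the difference of 1.03 ± 0.30 (SE) did not pass the test (limma, adjusted p = 1.00). Clone H3076G03 averaged 1.06 and 0.62 in the lines with and without the transgene, and clone H3141F05 averaged -0.67 and -0.64. These 3 clones have no gene name in the study's lists and were chosen after their values were seen.

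Counting rows with all 4 arrays of 3T3-tTA-eIF4E on one side of 0 and a mean of at least 1.3-fold gave 45 higher and 7 lower, 0.295% and 0.0459% of the rows. In 3T3-tTA the same rule gave 94 higher and 33 lower, 0.617% and 0.216%. These counts depended on single arrays, and with 1 array left out the dyes were no longer balanced. Leaving one out, so that 3 had to lie on one side, gave 36 (without T13) to 350 (without T15) higher and 45 (without T9) to 63 (without T11) lower rows in the eIF4E line, and 106 (without T5) to 393 (without T3) higher and 44 (without T3) to 123 (without T1) lower ones in the parental line. Of the 45 higher clones 43 also had a parental mean above 0, 14 of them by at least 1.3-fold, and their median was 0.48 in the eIF4E line and 0.31 in the parental line. There was no overlap with the parental arrays for 4 of the 45, which were the 3 Eif4e clones and H3058D02. For the 7 lower clones the lowest mean was -0.67 and 0 were clear of the parental arrays. No row passed the test of the difference between the lines (0 of 15247 called, smallest adjusted p 0.438, and 68 with an unadjusted p under 0.05). The 3 Eif4e clones were among the rows that did not pass, so failing this test was no sign that the lines were alike. Across all rows arrays without overlap between the lines were found for 140, or 0.918%.

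The reading of single clones was limited by a difference between the dye orientations. Arrays of this line with the same orientation correlated at 0.55 (T9 with T15) and 0.58 (T11 with T13) across rows. Arrays with opposite orientation had correlations of -0.37 (T9 with T11), -0.43 (T9 with T13), -0.52 (T11 with T15) and -0.61 (T13 with T15), although a change in mRNA would have the same sign on all of them. Since the dyes are given in the labels, the signs were left as the labels set them, and with these signs the Eif4e clones were high on all 4 arrays. The dye term, by which a Cy3 array lies above and a Cy5 array below the mean of the line, exceeded the mean change in size for 11165 rows, or 73.2%. When the sign of the Cy5 arrays was turned, so that the dye took the place of the induction, 2100 rows were called, 1344 higher and 756 lower. T13 had the widest spread, an SD of 0.55 across rows against 0.28 to 0.37 on the other 3 arrays. It had 965 rows above 1 where the others had 37 to 73. Rows below -1 numbered 258 on T13, 296 on T9, 356 on T15 and 8 on T11. All these counts include 237 rows at places without a clone number. Their medians were 1.11 on T13, 0.17 on T11, -1.27 on T9 and -0.97 on T15.

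**Figure D2:**
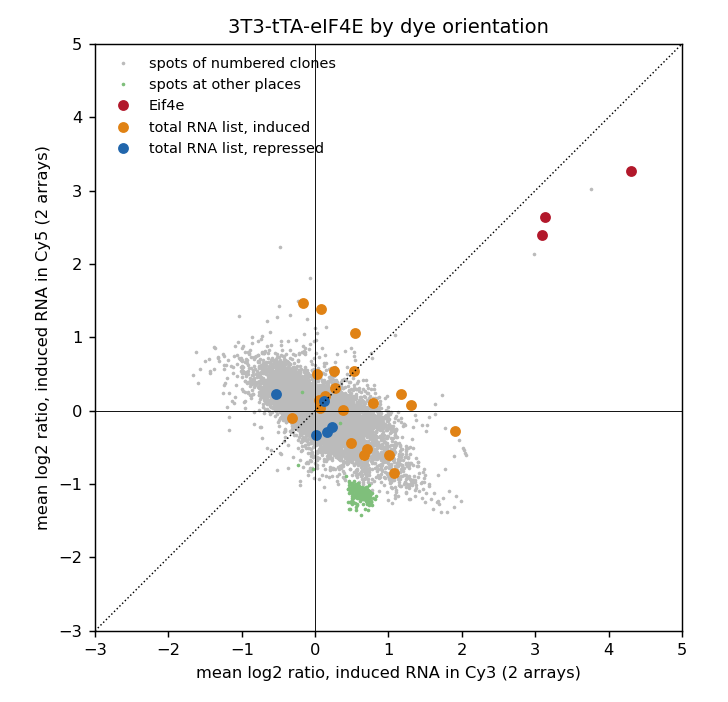
Mean log2 of induced over uninduced RNA on the 2 arrays with induced RNA in Cy3 (horizontal axis) against the 2 arrays with it in Cy5 (vertical axis), 1 point per row, with the dotted line marking equal values. Eif4e lies near the dotted line, while most rows, 73.2%, have opposite signs with the dyes, as do 7 of the 21 other clones listed as induced and 4 of the 5 listed as repressed; the 237 green points are rows printed at places that carry no clone number.

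The study's total RNA list was drawn from these arrays by comparing both lines, so it is not independent evidence of a direction within either. Of its 30 clones 29 could be tied to a row, 24 listed as induced and 5 as repressed. Leaving Eif4e aside, 9 of the 21 clones listed as induced had a mean of at least 1.3-fold within 3T3-tTA-eIF4E, against 1.53% of all rows, and 0 of the 21 passed the limma test. A single one of the 9, Spp1, was above 0 on all 4 arrays. The median of the 21 was 0.26 in the eIF4E line and -0.18 in the parental line, against -0.01 and -0.00 over all rows.

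Spp1 and Cdk8 were above 0 on most arrays, and T13 was the highest array for both. Spp1, osteopontin, a secreted phosphoprotein that binds integrins and is raised in transformed fibroblasts, read 0.05 on T9, 0.64 on T11, 1.70 on T13 and 0.42 on T15, a mean of 0.70 ± 0.71 (SD). Its parental values were 0.02, -0.20, 0.34 and 0.24 on T1, T3, T5 and T7. Cdk8, the kinase of the Mediator complex, read -0.11, 0.59, 2.04 and 0.27, a mean of 0.70 ± 0.94, against a parental mean of -0.09. Neither passed the test within the line (adjusted p = 0.963 for both), and T13 carried most of either mean.

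Other listed clones were highest on T9. Son, a splicing factor of nuclear speckles, read 2.92 on T9 and 0.10, 0.05 and -0.16 on T11, T13 and T15. Hs1bp3, a binding partner of the haematopoietic protein HS1, read 3.00 on T9 and -0.03, -0.29 and -0.05 on the other arrays. LOC382252, a predicted gene, read 2.82 on T9 and 0.47, 0.63 and -0.70 on the others. Their means were 0.73, 0.66 and 0.80 with T9 and -0.00, -0.12 and 0.13 without it, so the high means rested on 1 array. Serpinf1, which encodes the secreted factor PEDF, read 2.01 on T9 and 0.10, 0.96 and -0.92 on the others, and Tcf25 read 1.29 on T9 and 0.06, 0.45 and -0.21 on the others. By the gap of 1 array to the nearest of the others, taken over the range of all 4, 1 array stood apart for 3 of the 21 clones, against 3.69% of all rows, and for 2 of these, Son and Hs1bp3, it was T9, against 0.498%. Without T9 the means of 3 of the 9 clones were still at least 1.3-fold, those of Serbp1 (0.91), Cdk8 (0.96) and Spp1 (0.92).

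LOC382252, Hs1bp3 and Son were printed next to each other. The array has 48 print blocks, and all 3 lay in block 42, at column 19 of row 1, column 19 of row 2 and column 21 of row 2. On T9 that block held 15 of the 36 rows above 1.5 on the whole array, although it held 323 of the 15247 rows, and no other block had more than 4. The 15 rows lay together in rows 1 to 8 and columns 15 to 23 of the block, with a median of 2.31 on T9. On the other 3 arrays of the line the same 15 rows had medians of 0.03, -0.18 and -0.18, and on the parental arrays their medians lay between -0.05 and 0.01. The spots that touch LOC382252 had a median of 2.81 on T9, those around Hs1bp3 2.38 and those around Son 2.05. After each value had the median of its neighbours subtracted, the means of the 3 clones over the 4 arrays were 0.19, 0.17 and 0.32, and 6 of the 21 listed clones were at least 1.3-fold. The total RNA channel of the scanned arrays gave 1.57 and 1.38 times the background at LOC382252 and 1.38 and 1.32 times at Son, and the duplicate spots of Son differed by 1.48 on T9. The places were read from scans of polysomal arrays of the same design, on which the clones named by the study's lists lay at the places their plate and well give (570 of 570). The part of printing or scanning in these values was not tested.

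**Figure D3:**
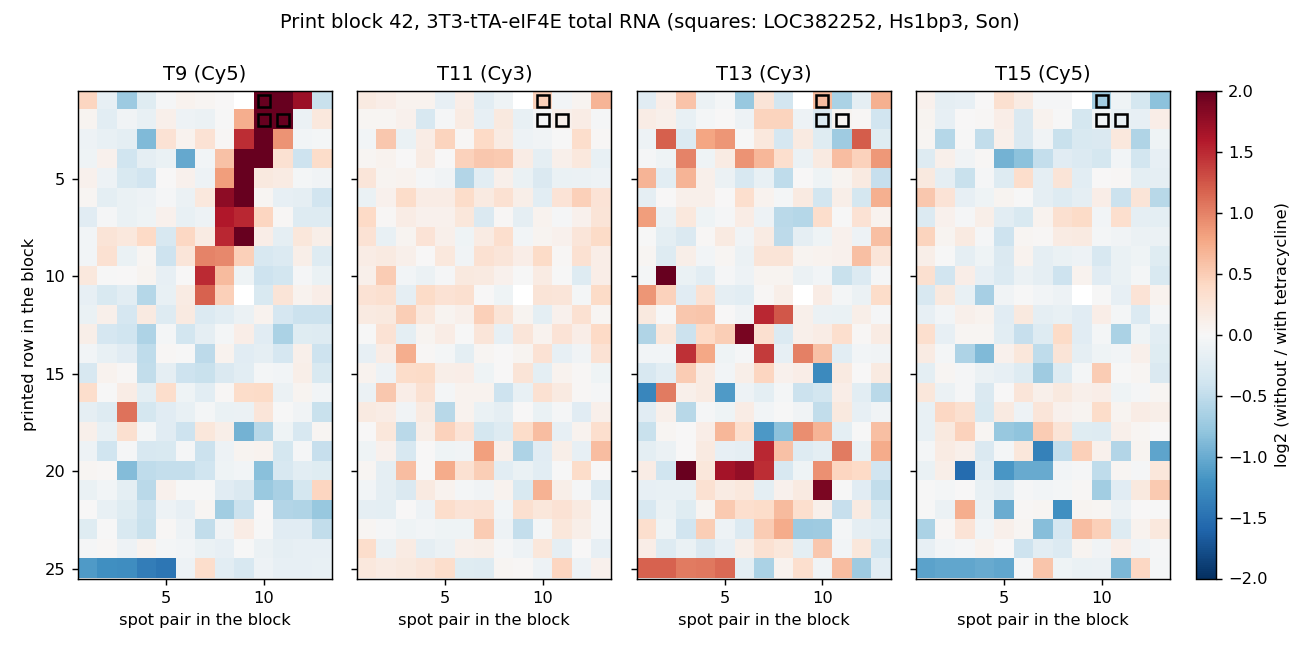
Log2 of induced over uninduced RNA in print block 42 on the 4 arrays of 3T3-tTA-eIF4E, with the spot pair along the block on the horizontal axis, the printed row on the vertical axis, colour for the value (limited to -2 and 2) and squares around LOC382252, Hs1bp3 and Son. On T9 the 3 clones lie in an oblique band of high values that runs through several printed rows and is absent from T11, T13 and T15.

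A further group was high with one dye and low with the other. H2afz, which encodes the histone variant H2A.Z, read 0.70 on T11 and 1.32 on T13 but -0.28 on T9 and -0.91 on T15. Tubb5, a beta-tubulin, read 0.70 and 1.44 on T11 and T13 but -0.57 and -1.13 on T9 and T15. Sars, the seryl-tRNA synthetase, read 0.12 and 1.21 but -0.35 and -0.86. These 3 of the 21 were above 0 on both Cy3 arrays and below 0 on both Cy5 arrays, and their means were 0.21, 0.11 and 0.03. Serbp1, an mRNA-binding protein, had the highest mean of the 21 (0.81), with 0.95 on T11, 2.85 on T13, 0.52 on T9 and -1.07 on T15, and its duplicate spots differed by 2.75 on T9. In the parental line Serbp1 read 0.78 on both Cy3 arrays and -0.59 and -1.04 on the Cy5 arrays, around a mean of -0.02.

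For several clones listed as induced the parental line had the larger mean change. Spag9, a scaffold of the JNK pathway, averaged -0.21 with the transgene and -0.68 without it. Dhdds, an enzyme of dolichol synthesis, averaged 0.05 and -0.41, and Sars averaged 0.03 and -0.61. Plin1, the coat protein of lipid droplets, read 0.16, 0.02, 0.07 and 0.14 in the eIF4E line, and its parental mean of -0.36 came largely from the -1.02 on T1. Anapc4, a subunit of the anaphase-promoting complex, averaged 0.20 and -0.30, with -0.93 on T3. In all, 12 of the 21 clones were below 1.3-fold within the eIF4E line, and 3 of these were at least 1.3-fold lower in the parental line. Spag9, Plin1, Anapc4 and Dhdds were printed in the same block, number 13.

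The matrix genes on the list had means within the eIF4E line that were smaller than the SD of its arrays. Col1a2, a chain of type I collagen and a fibroblast marker, read -0.22, -0.02, 1.00 and -0.67, a mean of 0.02 ± 0.71, against -0.36 ± 0.07 in the parental line, where all 4 arrays were below 0. Bgn, the proteoglycan biglycan, averaged 0.09 and -0.33. Dcn, decorin, which the study lists as repressed, averaged -0.16 and 0.45. Cks1b, Pttg1 and 1300006C06Rik made up the rest of those listed as induced, with means of 0.29, 0.26 and 0.45 in the eIF4E line. Cks1b is a partner of cyclin-dependent kinases and Pttg1 is securin, and neither was above 0 on all arrays.

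The 5 clones listed as repressed had means near 0 within the eIF4E line. These lay between -0.16 and 0.13, and 0 of the 5 were at least 1.3-fold lower, against 0.446% of all rows. In the parental line the 5 means lay between 0.45 and 0.78, all at least 1.3-fold higher, against 1.07% of all rows. Bnip3, a mitochondrial BH3 protein known as a target of hypoxia signalling, read 0.06, 0.21, 0.03 and 0.19 with the transgene and 0.85, 0.88, 0.42 and 0.53 without it. Its arrays did not overlap between the lines, and the difference of -0.54 did not pass the test over all rows (limma, adjusted p = 1.00). Mpdu1, needed for the use of dolichol-linked mannose, averaged 0.00 and 0.59, Cyhr1 -0.15 and 0.47, and Shisa5, a p53-inducible membrane protein, -0.06 and 0.78.

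**Figure D4:**
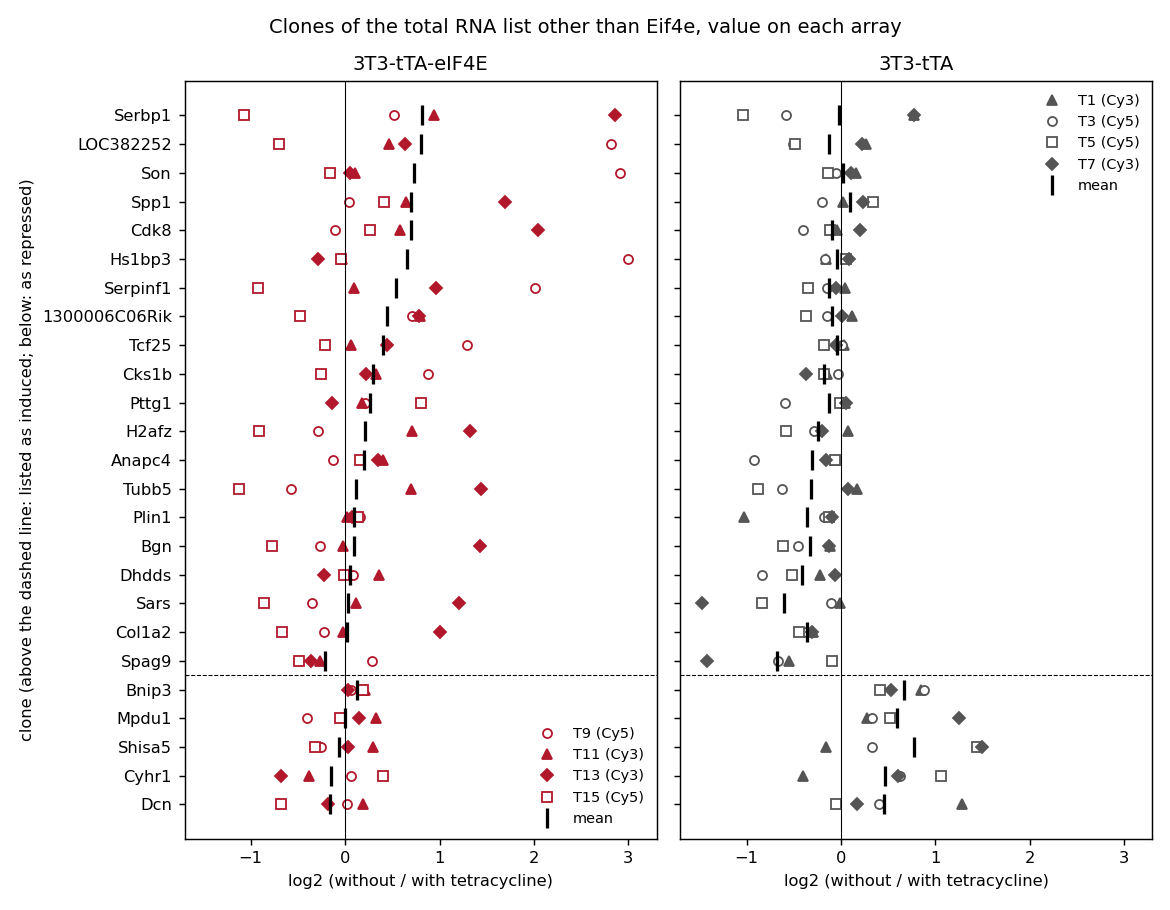
Log2 of induced over uninduced total RNA (horizontal axis) on each array of 3T3-tTA-eIF4E (left, red) and 3T3-tTA (right, grey) for 25 clones of the study's total RNA list other than Eif4e, with filled symbols for induced RNA in Cy3, open symbols for Cy5 and black bars for means. Son, Hs1bp3 and LOC382252 are highest on T9, Tubb5 and H2afz split by dye, and the 5 clones listed as repressed stand near 0 on the left and above 0 on average on the right.

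The study's polysome list holds clones whose share on polysomes differed between the lines, so in total RNA it was asked whether the amount of these mRNAs moved as well. It was drawn from other arrays. Of its 554 clones 543 had a row, 301 listed as activated and 242 as repressed. The median in total RNA of 3T3-tTA-eIF4E was -0.01 for the activated and -0.02 for the repressed clones, against -0.01 over all rows, and 0 clones were called in either. All 4 arrays were above 0 for 10 of the 543 and below 0 for 21, against 3.67% and 3.76% of all rows. A mean of at least 1.3-fold was reached by 2 clones upward and 4 downward, against 1.53% and 0.446% of all rows.

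Of these, 2 had all 4 arrays on one side. C1r, a protease that starts the classical complement cascade and is listed as repressed on polysomes, read -0.35, -0.23, -0.19 and -0.99, a mean of -0.44 ± 0.38 or 1.35-fold lower. Its parental values were 0.28, -0.73, 0.05 and 0.22, so the lines overlapped, and its spots were dim at 1.84 and 0.94 times the background. The other, 1700071K18Rik, listed as activated, read 0.71, 0.87, 0.01 and 0.49, a mean of 0.52, and averaged 0.54 in the parental line. Both had an adjusted p of 0.963. Hmga2, an architectural chromatin factor, averaged 0.52 in the eIF4E line, with 1.47 on T13 and -0.44 on T15.

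Genes of both lists were also grouped by their known roles. Ribosomal protein mRNAs stood near 0 in the mean and split by dye. The 9 clones of the small subunit had a median of 0.07 and the 17 of the large subunit 0.08, and 0 of these 26 clones had all arrays on one side of 0, against 7.42% of all rows. With 1 array or extraction left out the medians ran from -0.19 to 0.39 for the small and from -0.14 to 0.40 for the large subunit. The median of the large subunit clones was 0.22 on T11 and 0.83 on T13 but -0.06 on T9 and -0.66 on T15. Those of the small subunit had medians of 0.23, 0.78, -0.04 and -0.51 on the same arrays. Rpl7a (0.33), the first of 2 Rpl23 clones (0.33) and Rps3a1 (0.26) had the highest means, and Rpl39 (-0.18), Rpl15 (-0.07) and Rps15a (-0.06) the lowest. Rpl13 read -0.32, 0.85, 1.22 and -1.14 around a mean of 0.15. Rpl26 (0.09), Rpl29 (0.08 and 0.01), Rpl32 (0.03) and Rpl35 (0.07) had smaller means. The dye term was larger than the mean for 15 of the 17 large subunit and 9 of the 9 small subunit clones, against 73.2% of all rows.

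The main partner of eIF4E stood near 0. Eif4g1, the scaffold that eIF4E binds, read -0.15, 0.06, 0.40 and -0.22, a mean of 0.03 ± 0.28, and 0.03 in the parental line. Among 15 clones of translation factors and tRNA synthetases, the 3 at or above 1.3-fold were those of Eif4e, and the lowest were Lars (-0.11) and Eef1e1 (-0.00). Mif, a cytokine listed as activated on polysomes, read 0.15, 0.63, 0.90 and -1.21, a mean of 0.12 ± 0.94.

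**Figure D5:**
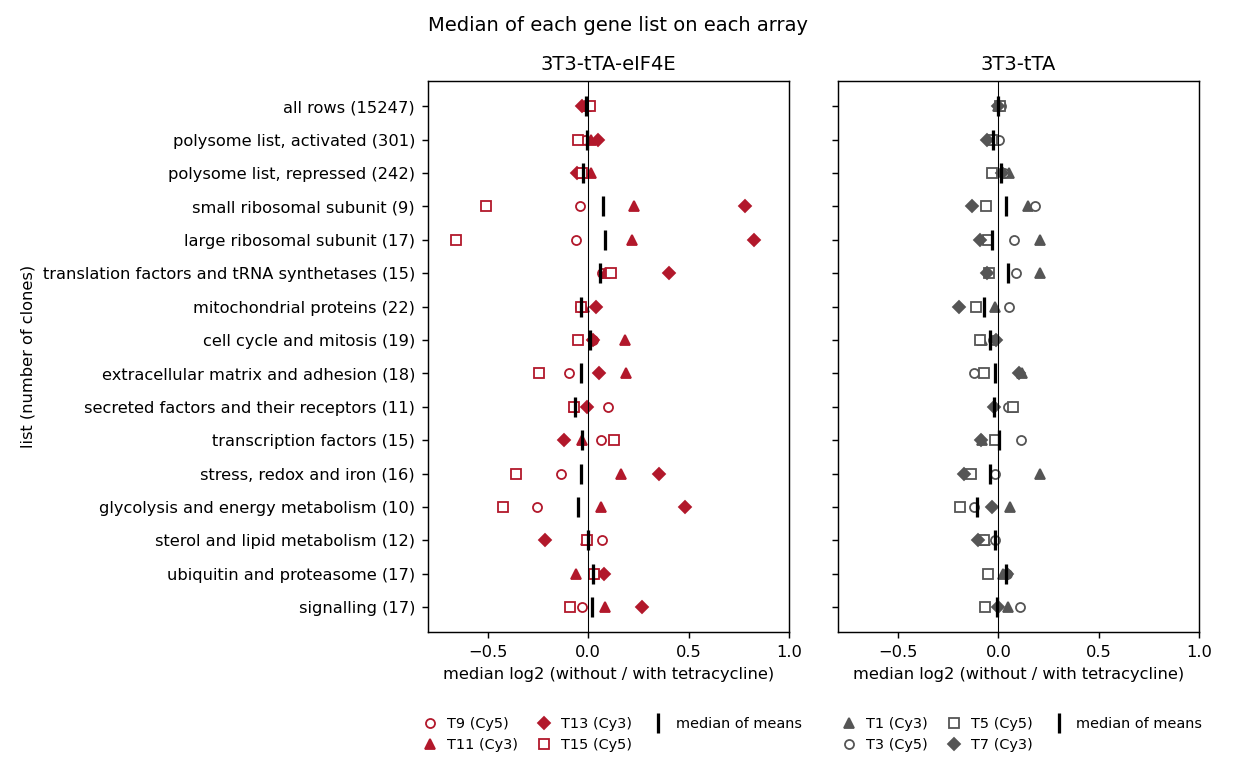
Median log2 of induced over uninduced RNA (horizontal axis) of each group of clones on each array of 3T3-tTA-eIF4E (left, red) and 3T3-tTA (right, grey), with filled symbols for induced RNA in Cy3, open symbols for Cy5 and black bars for the median of the clones' means. The ribosomal, glycolysis and stress groups lie above 0 on T13 and below 0 on T15 in the eIF4E line, with bars near 0.

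Outside translation the medians lay between -0.07 and 0.03, and T13 and T15 again stood apart for the glycolytic genes (0.48 and -0.43) and for the stress, redox and iron genes (0.35 and -0.36). Of 19 clones for the cell cycle and mitosis Cdk8 was the only one at 1.3-fold, followed by Cks1b, and Timeless (-0.13) and Cetn3 (-0.08) were lowest. Among 22 clones for mitochondrial proteins the import factor Tomm20 had the lowest and the second highest mean, with -0.20 for clone H3025F06, below 0 on all arrays, and 0.17 for clone H3038G11, which read 0.61 on T13 and -0.78 on T15. Timm23 (0.23) was the highest and Ndufaf1 (-0.16) the second lowest. In the matrix and adhesion group Spp1 and Serpinf1 were highest and Dcn and Cldn7 (-0.15) lowest. Secreted factors and their receptors ranged from Wnt6 (-0.17) and Cxcl1 (-0.16) to Mif and Ednrb (0.14).

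Of 15 clones of transcription factors Hmga2 was the one past 1.3-fold, Nr0b2 (0.19) followed, and the lowest were the growth-responsive Egr1 (-0.14) and Meis1 (-0.10). The metal-binding protein Mt2 (-0.17) and the chaperone Hspa8 (-0.14) were lowest among stress genes, and the chaperone Canx (0.27) and Nupr1 (0.17) highest. In energy metabolism both clones of malate dehydrogenase Mdh1 were lowest (-0.12 and -0.11), and Pfkm (0.19) and Ldhb (0.10) highest. For sterols and lipids the range ran from Cpt2 (-0.16) and Osbpl1a (-0.11) to Plin1 and Plpp3 (0.17). The ubiquitin group ran from Usp2 (-0.28) and Ube2d3 (-0.17) to Usp9x (0.27) and Rnf11 (0.26). In signalling Ikbkb (-0.17) and Pik3cd (-0.08) were lowest and Ctnnb1, beta-catenin, highest (0.32). Chuk, the kinase IKK-alpha, was next with 0.19, 0.36, 0.37 and 0.25, the most even profile of these 4, and averaged 0.20 in the parental line. Apart from Eif4e none of the clones in these 13 groups was called by limma.

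A ratio gives no level, so cell identity could be checked only through brightness. In the total RNA channel of this line on the scanned arrays the fibroblast marker Col1a2 was at 36.5 and 22.9 times the background, Bgn at 6.16 and 3.89 and Dcn at 1.60 and 1.34. Spots for markers of other cells were above background too, at 29.7 and 44.6 times for the endothelial Pecam1, 3.54 and 3.55 for Cd34, 5.33 and 6.24 for the erythroid Hbb-y, 2.23 and 5.37 for the myeloid Fcgr1 and 3.48 and 3.01 for Stab1. Their means in total RNA of the eIF4E line lay between -0.08 and 0.07. What these spots bound was not tested.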

How the data were processed

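Total RNA was compared on Mouse 15K3 cDNA arrays. The authors scanned them with a GenePix scanner, normalized within each array by limma's lowess without background subtraction, and deposited log2 values of Cy3 over Cy5 for each duplicate spot. Deposited scanner intensity values of 4 polysomal arrays, which the authors had not normalized, gave scale, direction and printed place. A normalization recomputed from them here had a lowest correlation of 0.995 with the deposited log2 values. Rows were paired with spots by the closeness of these same values, so the pairing itself raised this correlation. Dyes came from the labels. Signs were turned to induced over uninduced and duplicate spots averaged.

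Deposited row names and values did not match. Rows were named by matching numerators of the study's lists to 6 significant digits (29 of 30 and 543 of 554 clones, 570 different ones). Symbols are current RefSeq names where the accession matched. Other rows have no gene name here. Members and gene lists were chosen with earlier results of these data known. Named genes are the clones of the total RNA list (1 is counted but not reported here by itself), polysome-list clones at 1.3-fold with all arrays on one side, the 2 highest and 2 lowest of each of 13 lists, genes the study followed up, and the cell type markers. Clones by number were chosen later.

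A dye term shared by the lines was removed per row, and extraction means of both lines were fitted with limma 3.58.1 in R 4.3.3. Each of 4 assignments of arrays to extractions was fitted, the largest p kept and Benjamini-Hochberg applied over 15247 rows. The extractions are the independent samples, and precision is limited by their number, 2 per line. The method was tested on simulated data. Alternatives are listed in the closing section.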

Additional observations from a re-analysis of the deposited data

Results flagged for a closer look

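In 4 of 83 named clones (4.82%, against 3.69% of all rows) 1 array of 3T3-tTA-eIF4E stood apart from the other 3 by the ratio of its gap to the range, which chance gives in about 1 of 20 groups. Son on T9 (2.92) and Hs1bp3 on T9 (3.00) were 2 of them, both in the corner of print block 42 described above. The others were 1300006C06Rik on T15 (-0.48) and Ednrb on T15 (-0.13).

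Plin1 was above 0 on all 4 arrays of 3T3-tTA-eIF4E and below 0 on all 4 of 3T3-tTA, a difference of 0.46 that did not pass the limma test (adjusted p = 1.00).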

How the results depend on the processing

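The call of 2 rows within the eIF4E line depended on the setting. It was 0 with the eIF4E line alone, with its arrays as replicates, with median centring, with the Cy3 arrays alone and at an adjusted p under 0.05, and 7 with arrays of both lines as replicates, 4 with arrays scaled to one spread, 5 with the second spot alone and 122 with duplicate spots as independent. It was 1060 with the Cy5 arrays alone, where the dye is not balanced, 2100 with the Cy5 arrays turned, and between 0 and 5 when 1 array or extraction was left out (0 without T9, T15, T1 or T7, 3 without T3 or T5, 4 without T13, 5 without T11). Subtraction of the neighbours, chosen after seeing the data, gave 5, and without block 42 it was 2. Of the 3 Eif4e clones 1 was called. The number was 0 with the eIF4E line alone, its arrays as replicates, median centring or the Cy3 arrays alone, 2 with the first spot alone and 3 with arrays of both lines as replicates, independent spots, scaling, the second spot alone, the Cy5 arrays alone or neighbours subtracted, and 0 to 3 with an array or extraction left out. Their means were above 2 under these settings, and 0.25 to 0.52 with the Cy5 arrays turned, where the value is the dye term.

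The 45 higher rows with all arrays on one side became 23 after scaling and 36 to 350 without 1 array (350 without T15), and the 7 lower ones 14 with either spot alone and 45 to 63 without 1 array. The difference between lines called 0 rows, 3 with arrays as replicates, 2 with the second spot alone, 4 with the Cy5 arrays alone and 0 to 4 with an array or extraction left out (4 without T13). Of the 24 listed as induced, Eif4e included, 12 were at least 1.3-fold, and 6 to 18 with an array or extraction left out (6 without T9, 7 without T13). Of the 5 listed as repressed 1 was 1.3-fold lower with the Cy3 arrays alone, and 0 to 1 with an array or extraction left out. The median of the polysome-list activated clones was -0.050 with the Cy5 arrays alone. With the Cy3 arrays alone it was 0.22 for translation factors, 0.017 for mitochondrial proteins and 0.19 for signalling, and with the Cy5 arrays alone 0.047 for secreted factors. Without an array or extraction the median ran from -0.19 to 0.39 for the small and -0.14 to 0.40 for the large ribosomal subunit, -0.16 to 0.14 for glycolysis, -0.11 to 0.08 for stress genes, -0.03 to 0.16 for signalling and -0.030 to 0.092 for the ubiquitin group, and the sign of each depended on which was left out. The medians of the other groups lay between -0.13 and 0.15 under these settings. With 1 array left out the dyes were not balanced either, and the cause of these shifts was not tested. Apart from the settings that left out 1 array or extraction, the other 211 values of these counts and medians stayed within 1.5 times or within 1 SD over arrays, as did 336 values of single clones, while 5 values, those of Plin1 and Bnip3 among them, moved by more than 1 SD. With a replicate block, added after seeing the data, in which extractions of the lines were paired and the largest p over the 8 possible pairings was kept, the difference between lines called 0 rows (limma, smallest adjusted p 0.656, 28 with an unadjusted p under 0.05). The labels do not give the pairing.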
